A study of Mus musculus with 30 samples.

Results

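The accessibility of chromatin was examined around 8 mouse genes that encode the TEAD transcription factors (Tead1, Tead2, Tead3 and Tead4), their coactivators YAP and TAZ (Yap1 and Wwtr1) and the vestigial-like cofactors Vgll3 and Vgll4. A window, meaning one consensus accessible region of a deposited count table, was assigned to one of these genes when the nearest protein-coding transcription start site (TSS) in GRCm38 (GENCODE vM21) belonged to it and lay within 50 kb. This gave 207 of 305931 windows in the 24 h table and 219 of 369846 windows in the 4 h table. Tead1 held 35 windows at 24 h and 47 at 4 h, Tead2 held 2 and 1, Tead3 held 6 and 8, and Tead4 held 38 and 39. Yap1 held 21 windows in each table and Wwtr1 held 20 in each, while Vgll3 held 32 and 28 and Vgll4 held 53 and 55. Windows deep inside a long gene that lay over 50 kb from every protein-coding TSS were left out by this rule. Distances in kb given below are from the start of the gene, and a window farther than this limit lay near another TSS inside the gene.

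The study used ATAC-seq, in which a transposase cuts open chromatin, to ask how drugs that change actin structure alter chromatin accessibility. The primary cells were mesenchymal stem cells (MSCs) grown from the bone marrow of male C57BL/6J mice, and the cell line was NIH3T3, a mouse embryonic fibroblast line obtained from ATCC and labelled as male and C57BL/6J. CK666 inhibits the Arp2/3 complex, which nucleates branched actin filaments, and cytochalasin D (CytoD) caps filament ends. One table held MSCs 24 h after no drug (control), CK666 or CytoD, and the other held MSCs and NIH3T3 cells 4 h after no drug or CK666. Each of these 7 groups had 3 replicate libraries, 21 of the 30 libraries in the series, and the labels name no genetic change in any of them. The 9 libraries of cells given siRNA were not used here. Nothing in the labels says that the replicates came from separate cultures, so p-values measure the spread between these libraries, which may be technical. In bulk libraries, fewer cells with an open site and less signal per cell cannot be told apart.

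As background, TEAD proteins bind DNA at sites holding GGAATG but activate transcription poorly alone. When the Hippo kinases (MST and LATS) are inactive, as in spread cells under tension with assembled actin, YAP and TAZ enter the nucleus and bind TEADs, often at enhancers that also carry AP-1 sites. Vestigial-like proteins bind the same face of TEADs, and VGLL4 is known as an antagonist of YAP, whereas VGLL3 acts as an alternative cofactor.

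Total counts over all windows were 14071301 to 22352180 per library at 24 h, 29239381 to 34979833 for MSCs at 4 h and 14496058 to 27866363 for NIH3T3 at 4 h. Normalized counts below are TMM-scaled counts per window, and within a group libraries ranked windows with correlations of 0.872 to 0.952. The labelled cell types were checked at the TSS windows of marker genes. In 24 h MSC controls, 6 of 7 stromal markers had such a window, at 56.8 to 612 normalized counts per kb, and 3 of 4 marrow stroma markers, at 80.9 to 599. Of the markers of other cells, 2 of 5 haematopoietic (25.1 to 44.1), 2 of 4 endothelial (17.5 to 70.7) and 1 of 3 epithelial markers (24.5) had one, and Kdr at 70.7 stood above the stromal Prrx1 at 56.8. In 4 h MSC controls the 7 stromal markers ran from 1.28 for Thy1 to 953 per kb and the 4 marrow stroma markers from 9.87 for Lepr to 2144, against 45.6 to 167 for 2 haematopoietic and 25.8 to 108 for 3 endothelial markers. There Cd68 (167) and Kdr (108) stood above Col1a1 (75.6) and Prrx1 (56.1). In NIH3T3 controls the stromal markers lay between 98.4 and 1169 per kb, the marrow stroma markers between 28.9 and 1569, the 2 haematopoietic markers between 79.3 and 129.6 and the 3 endothelial markers between 37.2 and 55.1, with Cd68 (129.6) above Col1a1 (128.9). Ptprc, Spi1, Itgam, Pecam1, Cdh1 and Krt8 had no TSS window in either table, Thy1 and Lepr had none at 24 h, and the part of other cells in the results was not tested. Scaling by total counts instead of TMM moved the median log2 fold change by 0.23 in NIH3T3 against MSC controls and by 0.10 in NIH3T3 with CK666, so small fold changes there are relative to the scaling.

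Below are 200 bases from each of 8 intronic windows that changed with a treatment, on the + strand of GRCm38. They were chosen after their values were seen, and other intronic windows with changes as large were left out. All 8 lie in introns of the named gene. The capitals mark letters found by a search of the whole of these windows on both strands, for the TEAD motif GGAATG, which reads CATTCC on the opposite strand, and the AP-1 motif TGANTCA. Each stretch was centred on the closest TEAD and AP-1 pair where these lay near each other. Without a pair it was centred on the match nearest the window's centre, or else on the centre itself. The place of a match or pair in a stretch therefore follows from this choice. The share of all windows with such a pair was not counted. The first 2 Tead1 sequences come from windows that lost accessibility with CK666 at 24 h, and the last Tead1 sequence from a window that CK666 opened in NIH3T3 at 4 h. The first 2 Tead4 sequences come from windows gained with CK666, and the last Tead4 sequence from a window that was high in NIH3T3 and was lowered by CK666 there. The Yap1 sequence comes from the window lowered by both drugs, and the Wwtr1 sequence from the window with the largest gain at 24 h.
Tead1 chr7:112720157-112720356: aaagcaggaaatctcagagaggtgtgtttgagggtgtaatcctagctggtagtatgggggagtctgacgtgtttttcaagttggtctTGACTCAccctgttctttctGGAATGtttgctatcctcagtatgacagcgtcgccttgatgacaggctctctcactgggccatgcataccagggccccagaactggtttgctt
Tead1 chr7:112797672-112797871: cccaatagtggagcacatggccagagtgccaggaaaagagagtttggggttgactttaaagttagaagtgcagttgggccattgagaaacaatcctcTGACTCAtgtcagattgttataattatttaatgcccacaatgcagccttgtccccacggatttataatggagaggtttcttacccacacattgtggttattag
Tead1 chr7:112792531-112792730: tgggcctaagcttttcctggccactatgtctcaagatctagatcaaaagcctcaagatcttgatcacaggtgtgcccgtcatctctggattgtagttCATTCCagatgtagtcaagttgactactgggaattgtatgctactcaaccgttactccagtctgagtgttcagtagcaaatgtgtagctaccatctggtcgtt
Tead4 chr6:128250092-128250291: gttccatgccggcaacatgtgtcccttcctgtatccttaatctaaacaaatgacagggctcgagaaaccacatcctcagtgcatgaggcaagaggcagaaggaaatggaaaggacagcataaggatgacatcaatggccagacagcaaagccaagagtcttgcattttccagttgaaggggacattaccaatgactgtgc
Tead4 chr6:128285833-128286032: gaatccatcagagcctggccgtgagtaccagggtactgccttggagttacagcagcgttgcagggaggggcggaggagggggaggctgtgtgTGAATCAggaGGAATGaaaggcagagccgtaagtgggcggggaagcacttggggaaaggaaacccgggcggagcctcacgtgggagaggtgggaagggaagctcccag
Tead4 chr6:128296452-128296651: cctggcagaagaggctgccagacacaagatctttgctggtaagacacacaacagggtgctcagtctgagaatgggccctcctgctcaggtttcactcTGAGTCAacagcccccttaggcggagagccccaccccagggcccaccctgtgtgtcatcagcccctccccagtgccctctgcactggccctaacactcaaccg
Yap1 chr9:7965706-7965905: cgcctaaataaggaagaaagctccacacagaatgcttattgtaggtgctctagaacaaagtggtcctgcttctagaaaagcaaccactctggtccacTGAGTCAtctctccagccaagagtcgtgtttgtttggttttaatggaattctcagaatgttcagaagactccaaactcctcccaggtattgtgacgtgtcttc
Wwtr1 chr3:57564240-57564439: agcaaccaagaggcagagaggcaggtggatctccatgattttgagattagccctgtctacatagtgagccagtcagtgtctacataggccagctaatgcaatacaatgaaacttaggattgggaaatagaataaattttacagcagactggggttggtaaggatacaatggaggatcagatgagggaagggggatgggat

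In the first Tead1 sequence TGACTCA covered bases 88 to 94 and GGAATG bases 108 to 113, so that their first bases were 20 apart. In the Tead4 sequence from chr6:128285833-128286032, TGAATCA covered bases 93 to 99 and GGAATG bases 103 to 108, with first bases 10 apart. The second Tead1 sequence, the Tead4 sequence from chr6:128296452-128296651 and the Yap1 sequence held an AP-1 match each, and the last Tead1 sequence held a TEAD match in a centre of which 42.3% was repeat. Neither motif was found in the Tead4 sequence from chr6:128250092-128250291 or in the Wwtr1 sequence. A match is a description of the letters only. Shares below count only matches in the central 300 bases of a window, which the matches in the first 2 Tead1 sequences are outside of, so those windows are counted as having none. In all, 19.9% of the 24 h windows held GGAATG and 21% held TGANTCA in their central 300 bases, against 23.7% and 19.3% of the 207 windows near the 8 genes. In the 4 h table the shares were 21.3% and 28.7% of all windows and 20.1% and 23.3% of the 219.

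Before treatment, the level at the gene start varied widely between the 8 genes. On a scale of normalized counts per kb of the TSS window with the most counts, 24 h MSC controls (mean ± SD, n = 3) gave Vgll3 1914 ± 138, Tead4 551 ± 34.4, Vgll4 489 ± 14.4 and Wwtr1 386 ± 24.6. Yap1 stood at 264 ± 10.6, Tead1 at 109 ± 15.7, Tead3 at 70.4 ± 11.4 and Tead2 at 51.9 ± 3.85 per kb. The median over all 16724 windows with a TSS was 146 per kb, so Tead1, Tead2 and Tead3 lay below it. The library ranges of neighbours in this order did not overlap at 24 h. The windows differed in length, with 535 bases for Vgll4, 592 for Vgll3 and 2128 for Wwtr1. The 4 h MSC controls, counted over other windows, did not repeat the order. There Vgll4 (1030 ± 86.8), Wwtr1 (1014 ± 40.6) and Vgll3 (982.5 ± 30.5, in a window of 2410 bases) overlapped, and Tead4 had 774 ± 18.3 per kb.

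The first question was which of these loci change when Arp2/3 is inhibited for 24 h in MSCs. Accessibility fell at 2 Tead1 introns, a Yap1 intron, the Tead4 start and 5 Vgll3 windows, the Vgll3 start among them. It rose at 2 Tead4 introns, a Wwtr1 intron, a Vgll3 intron and a window upstream of Vgll4. A window passed when its p from the quasi-likelihood F test of edgeR, adjusted over all tested windows by the Benjamini-Hochberg method, was under 0.01. With CK666, 5 of the 205 tested windows gained, where 3.02% of all tested windows did, and 9 lost, where 2.9% of all did. Adding a log2 fold change beyond 1 left 6 windows, 3 in each direction, or 2.93% against 2.94% of all tested windows. The median log2 fold change over the 205 was -0.01, and over all tested windows it was 0.02. The text names each gene's TSS window and, in each comparison, its largest gain and loss among windows past both limits. A gene with no such window is named by its passing window with the smallest p, which need not be its largest change. Windows beyond these are said to be singled out after their values were seen, while a window named in one comparison is also followed in others. Of the 14 passing windows, 5 passed after leaving out any of the 6 libraries: 2 of Tead1, 2 of Tead4 and 1 of Wwtr1.

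Tead1, the most broadly expressed TEAD, lost accessibility at an intronic window 118.6 kb downstream of the gene start (chr7:112797488-112798407). Its normalized counts were 142, 138 and 162 in the controls and 79.5, 49.8 and 61.4 with CK666. All CK666 libraries lay below all controls, and the log2 fold change was -1.22 (SE 0.17) with an adjusted p of 3.66e-08. Another intronic window, 41.2 kb from the start (chr7:112720002-112721117) and singled out after its values were seen, had 173, 181 and 214 in the controls and 96.1, 91.9 and 75.01 with CK666. Again the groups did not overlap, with a log2 fold change of -1.11 (SE 0.16) and an adjusted p of 4.47e-08. This is the window whose sequence held AP-1 and TEAD letters 20 bases apart. The Tead1 TSS window did not pass (-0.10, adjusted p = 0.727).

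Tead4, which is known from trophoblast and muscle, gained at an intronic window 50.6 kb from its start (chr6:128249915-128250467). The controls had 39.7, 52.2 and 50.2 normalized counts and the CK666 libraries had 148, 139 and 141, with a clear gap between the groups. The log2 fold change of 1.57 (SE 0.19) was the largest gain at Tead4 (adjusted p = 7.64e-10). A second intronic window at 14.9 kb (chr6:128285654-128286199), singled out after its values were seen, went from 81.3 ± 22.9 to 151 ± 19.1 (SD, n = 3), and the log2 fold change was 0.93 (SE 0.18) (adjusted p = 4.57e-05). The Tead4 TSS window (chr6:128299199-128300788) moved the other way, from 827, 863 and 934 in the controls to 734, 687 and 693 with CK666. The groups did not overlap and the log2 fold change was -0.31 (SE 0.079) (adjusted p = 0.0035), a call that ended without CK666 replicate 2 (0.0211), CK666 replicate 3 (0.0161) or control replicate 3 (0.0345). Tead2 and Tead3 had no passing window by edgeR or DESeq2, and 0 of their 2 and 6 windows had an unadjusted p under 0.05. Their TSS windows had log2 fold changes of 0.07 and 0.19 with adjusted p of 0.898 and 0.511.

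Among the coactivators, Yap1 had a window in an intron 38.8 kb from its start (chr9:7965515-7966141) that fell from 71.8, 65.7 and 67.9 in the controls to 36.04, 25.8 and 31.2 with CK666. No library of one group reached the other, and the log2 fold change was -1.14 (SE 0.26) (adjusted p = 0.00118), not passing without CK666 replicate 2 (0.0167). The Yap1 TSS window did not pass, with a log2 fold change of 0.03 (adjusted p = 0.938). Wwtr1, which encodes TAZ, had the largest gain near any of the 8 genes, in an intron 11.6 kb from its start (chr3:57564077-57564601). This window was almost closed in the controls, at 3.85, 5.05 and 1.76 normalized counts, and reached 32.3, 30.1 and 29.2 with CK666. The log2 fold change was 3.06 (SE 0.54) with an adjusted p of 1.04e-05, on few counts. The Wwtr1 TSS window had a log2 fold change of -0.14 (adjusted p = 0.308), and the Vgll4 TSS window one of 0.25 (0.157).

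Vgll3 was the locus with the most passing windows, 5 losses and 1 gain. At its TSS (chr16:65814867-65815459) the controls had 1043, 1203 and 1152 normalized counts and the CK666 libraries had 846, 900.0 and 951. Every CK666 library was below every control, with a log2 fold change of -0.34 (SE 0.074) (adjusted p = 0.000574), which ended without CK666 replicate 1 (0.015) or control replicate 2 (0.0131). The other 4 losses, of which the first and last were singled out after their values were seen, had log2 fold changes of -0.90, -0.63, -0.38 and -0.31, and each ended when at least one library was left out. In that order they ended without CK666 replicate 2 (0.0235) or control replicate 3 (0.0149) for the first, without CK666 replicate 3 (0.023), control replicate 1 (0.013) or control replicate 3 (0.0167) for the next, without CK666 replicate 1 (0.0181), CK666 replicate 2 (0.0274) or control replicate 2 (0.0161) for the one after and without CK666 replicate 1 (0.0154), CK666 replicate 3 (0.0787), control replicate 2 (0.0415) or control replicate 3 (0.0176) for the last. The gain, 1.05 in an intron, passed in 1 of the 6 fits without a library, and so did the only passing Vgll4 window (chr6:114976679-114977243, log2 fold change 0.61, adjusted p = 0.0048). Without control replicate 3 these adjusted p were 0.0517 and 0.0239, and both calls also ended by DESeq2 (1.02, 0.0105) and (0.59, 0.0182) (log2 fold change, adjusted p).

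The counts of all windows of a gene were also summed and tested over all protein-coding genes, with 12.4% of genes passing for CK666. Tead1 and Vgll3 were the 2 of 8 that passed, both lower. The Tead1 sums were 2146, 2246 and 2197 in the controls and 1892, 1815 and 1913 with CK666, without overlap, a log2 fold change of -0.23 (SE 0.054) (adjusted p = 0.0007). The Vgll3 sums were 4112, 4229.9 and 4206 and 3599.7, 3633 and 3456, also without overlap, a log2 fold change of -0.23 (SE 0.046) (adjusted p = 5.32e-05). Both passed without any of the 6 libraries. Yap1 had a log2 fold change of -0.21 (adjusted p = 0.0227) and passed by DESeq2 (-0.25, 0.00311), Tead4 0.10 (0.165) and Wwtr1 -0.07 (0.503). The plot of summed counts at 24 h shows that the sums moved far less than the single windows.

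**Figure D1:**
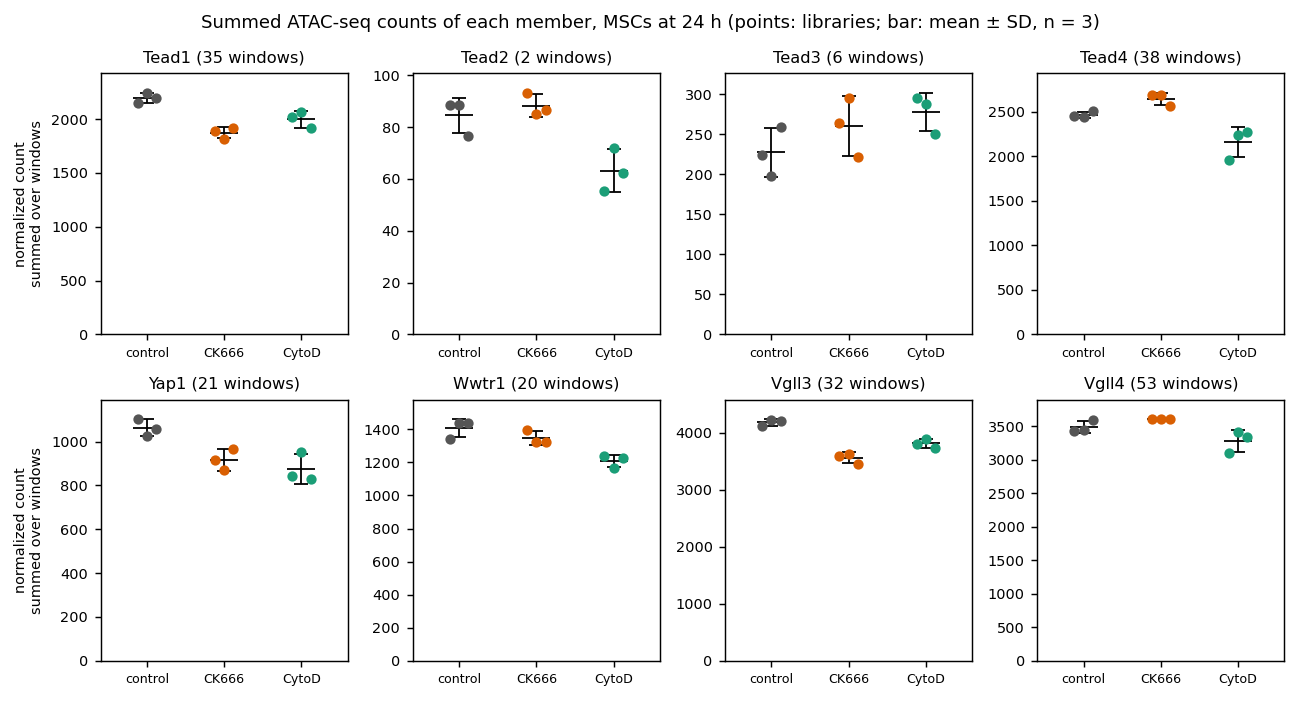
Normalized counts summed over all windows of each of the 8 genes (y axis, starting at 0) in MSCs after 24 h of no drug, CK666 or CytoD (x axis); points are libraries and bars the mean ± SD (n = 3). The CK666 libraries of Tead1 (1874 ± 51.4) and Vgll3 (3563 ± 93.7) lie below their controls (2196 ± 50.03 and 4183 ± 62.3).

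CytoD was tested against the same 3 control libraries, which the comparisons with CK666 and CytoD therefore share. The Tead4 and Wwtr1 starts, 2 Yap1 windows, a Tead1 intron, a window upstream of Tead1 and 2 Vgll3 introns were among the 11 losses with CytoD, and the one gain was in a Tead4 intron. Of the 205 tested windows 1 gained, where 1.7% of all tested windows did, and 11 lost, where 3.99% did. With the log2 limit of 1 there were 2, both losses, or 0.976% against 2.38% of all. Of the 12, 4 passed without any one library, at Tead4, Yap1, Vgll3 and Tead1.

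The Tead4 TSS window (chr6:128299199-128300788) went from 827, 863 and 934 in the controls to 553, 572 and 584 with CytoD, without overlap. Its log2 fold change was -0.62 (SE 0.081) (adjusted p = 8.95e-09), beside -0.31 with CK666. The gain, in an intron 22.7 kb from the start (chr6:128277054-128279213) and singled out after its values were seen, was 0.80 (adjusted p = 0.00231) and ended without CytoD replicate 3 (0.0387), control replicate 2 (0.0323) or control replicate 3 (0.0259). The Tead4 intronic windows that CK666 opened had CytoD values of 82.9, 56.3 and 55.1 at 50.6 kb (log2 fold change 0.42, adjusted p = 0.233) and 79.6 ± 11.3 at 14.9 kb (-0.01, adjusted p = 0.986). At Tead1, the window at 41.2 kb had 91.7, 122 and 107 with CytoD, all below the controls, a log2 fold change of -0.83 (SE 0.16) (adjusted p = 5.13e-05). The Tead1 window at 118.6 kb, lowered by CK666, had 197, 183 and 146 with CytoD, overlapping the controls (0.24, adjusted p = 0.37). A Tead1 window 33.4 kb upstream (chr7:112645601-112646158) had the largest loss there, -1.24 (adjusted p = 0.00344), which ended without CytoD replicate 1 (0.0406), CytoD replicate 3 (0.0141) or control replicate 2 (0.0393).

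The Yap1 intronic window at 38.8 kb fell from 71.8, 65.7 and 67.9 to 17.6, 26.4 and 28.9 normalized counts with CytoD, the largest loss near the 8 genes. Its log2 fold change was -1.47 (SE 0.28) (adjusted p = 6e-05), beside -1.14 with CK666. A Yap1 window 1.0 kb inside the gene had a log2 fold change of -0.63 (adjusted p = 0.00111), singled out after its values were seen, which ended without CytoD replicate 3 (0.0591) and with loess offsets (-0.46, 0.0207). At the Wwtr1 TSS (chr3:57574732-57576860) the controls had 765, 869 and 828 and the CytoD libraries 668, 632 and 650.0, without overlap. This was a log2 fold change of -0.34 (SE 0.08) (adjusted p = 0.00176), which ended without CytoD replicate 2 (0.0129), CytoD replicate 3 (0.0105) or control replicate 2 (0.0231). The Wwtr1 TSS call also ended with loess offsets (-0.21, 0.0326). The Wwtr1 intron that CK666 opened had 5.02, 8.39 and 6.32 with CytoD, a log2 fold change of 0.87 (adjusted p = 0.444).

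At Vgll3, the intronic window 7.6 kb from the start (chr16:65821618-65824135) had 452, 448 and 432 in the controls and 322, 273 and 311 with CytoD. The groups did not overlap, and the log2 fold change was -0.56 (SE 0.10) (adjusted p = 2.24e-05), beside -0.38 with CK666. The Vgll3 TSS had 1096, 1033 and 1030.1 with CytoD (-0.11, adjusted p = 0.405). The TSS windows of Tead1 (0.07, 0.803), Tead2 (-0.57, 0.0879), Tead3 (0.19, 0.483), Yap1 (-0.26, 0.191) and Vgll4 (-0.09, 0.682) did not pass with CytoD (log2 fold change, adjusted p). Vgll4 had 1 passing loss, -0.34 at chr6:114888875-114889421 (adjusted p = 0.00456), which ended without CytoD replicate 1 (0.0273), CytoD replicate 3 (0.0305), control replicate 2 (0.046) or control replicate 3 (0.0445), and also with total-count scaling (-0.27, 0.014) or with loess offsets (-0.20, 0.074).

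For summed counts, 3 of the 8 genes passed with CytoD, all lower, where 17.2% of all genes passed, 2369 of them lower and 856 higher. Tead4 went from 2467 ± 33.4 to 2157 ± 169 (SD, n = 3), and the log2 fold change was -0.19 (adjusted p = 0.00382), a call that ended without CytoD replicate 1 (0.0689). Yap1 went from 1063 ± 38.5 to 875 ± 68.8, with a fold change on the log2 scale of -0.28 (adjusted p = 0.00184), and this call ended without CytoD replicate 3 (0.0197). Wwtr1 had -0.22 (adjusted p = 0.00459), which ended without CytoD replicate 2 (0.0226), CytoD replicate 3 (0.0104), control replicate 2 (0.0171) or control replicate 3 (0.0135). With total-count scaling none of the 3 passed by edgeR, with adjusted p of 0.0593, 0.016 and 0.0353 for Tead4, Yap1 and Wwtr1, and by DESeq2 with its own scaling Yap1 passed and the other two did not. Tead1 had -0.14 (0.0463) and Vgll3 -0.13 (0.0217). The sums include the TSS windows, and at Tead4 and Wwtr1 most of the fall of the sum lay in the TSS window described above. Over the 37 tested Tead4 windows the median log2 fold change was 0.05, with 18 below 0 and 19 above. For the 20 Wwtr1 windows it was -0.08, with 10 on either side of 0. For the 21 Yap1 windows it was -0.24, with 14 below 0 and 7 above.

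The 2 drugs were also compared directly, as CK666 over CytoD. Of the 205 windows 6 were higher with CK666, where 4.82% of all tested windows were, and 4 were lower, where 2.26% were. With the log2 limit there were 3, or 1.46% against 3.28% of all. The Tead1 window at 118.6 kb was lower with CK666 than with CytoD in every library, with a log2 difference of -1.46 (adjusted p = 1.03e-10). The Tead4 introns at 50.6 and 14.9 kb were higher with CK666, with log2 differences of 1.15 (2.28e-06) and 0.94 (4.53e-05). The window over a Vgll3 UTR exon (chr16:65862626-65864946) was lower with CK666, at 112, 101 and 87.7 against 172, 186 and 189 with CytoD, a difference of -0.86 (9.13e-06). These 4 passed without any one library. The Wwtr1 intron differed by 2.19 (0.000813), which ended without CK666 replicate 1 (0.0113), and the Tead4 TSS by 0.31 (0.00561), a call that ended whichever of the 6 libraries was left out (adjusted p of 0.0129 to 0.0674) and with total-count scaling (0.23, 0.0214) or with loess offsets (0.18, 0.0815). A Yap1 coding exon (chr9:7961673-7962299) differed by -0.82 (0.00356), which ended without CK666 replicate 1 (0.0204), CK666 replicate 2 (0.0392) or CytoD replicate 2 (0.0749). The Vgll4 intron that was lower with CytoD differed by 0.36 (0.00208), which ended without CK666 replicate 1 (0.0121), CK666 replicate 3 (0.0239), CytoD replicate 1 (0.0218) or CytoD replicate 3 (0.0243) and with loess offsets (0.23, 0.0252). For summed counts only Tead4 of the 8 passed, where 21.9% of genes did, with 1963, 2239 and 2269 for CytoD and 2686, 2689 and 2569 for CK666, a log2 difference of 0.29 (SE 0.053) (adjusted p = 4.97e-06). Tead1 and Vgll3, at -0.09 and -0.10, passed as lower with CK666 in other fits, Tead1 by DESeq2 (-0.18, 0.000921) or with total-count scaling (-0.17, 0.00223) and Vgll3 by DESeq2 (-0.18, 2.09e-05) or with total-count scaling (-0.17, 0.000235). The Vgll3 TSS, at -0.23 (0.0307), passed with total-count scaling (-0.31, 0.000212) or with loess offsets (-0.35, 5.9e-06).

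**Figure D2:**
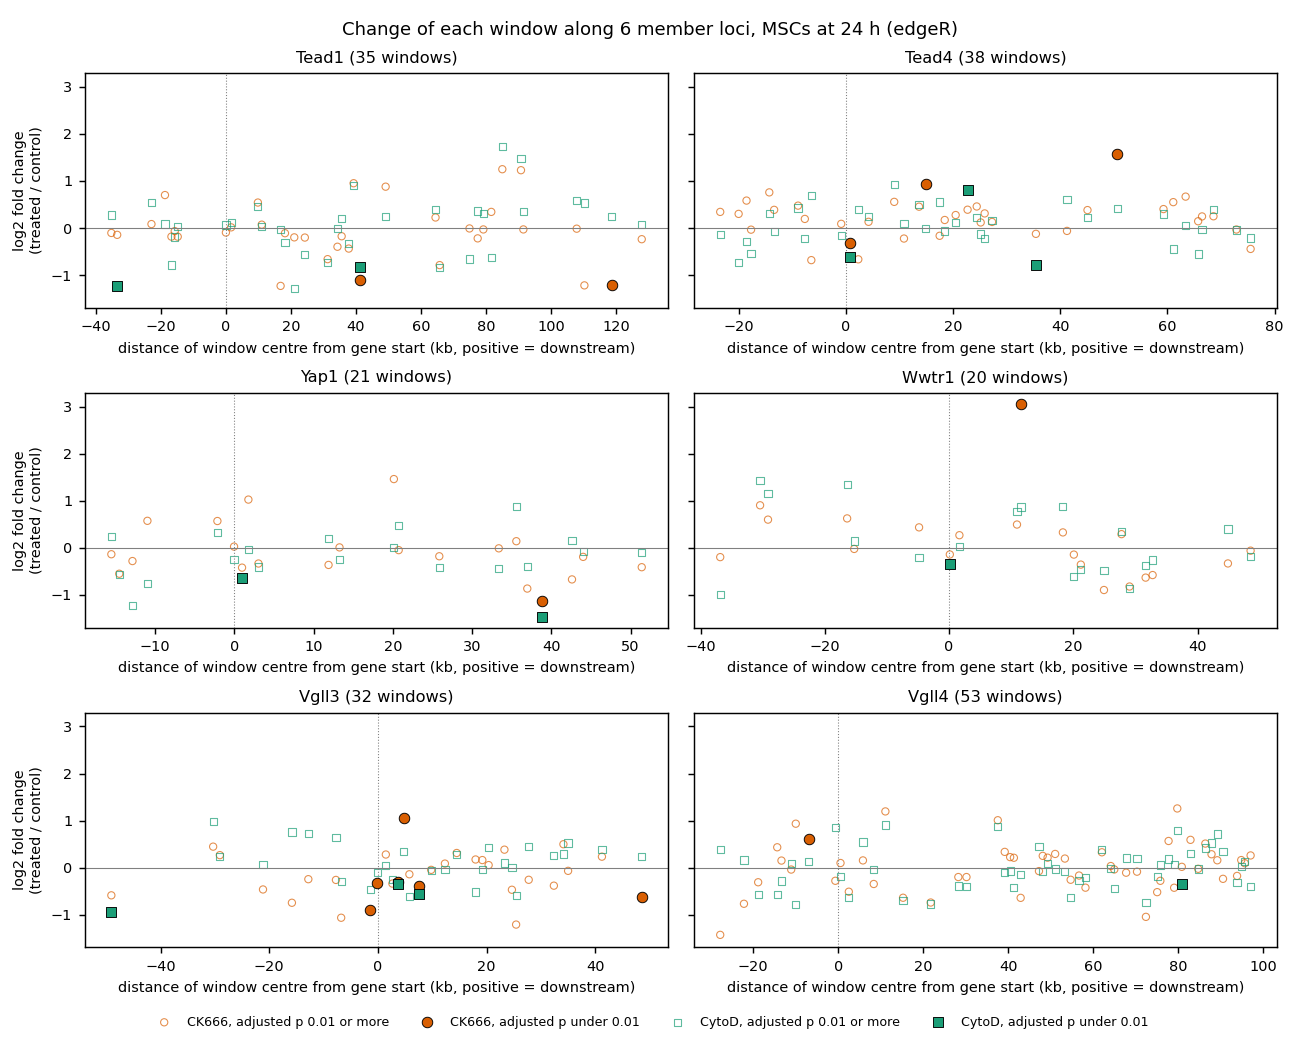
Log2 fold change over control in MSCs at 24 h (y axis) for each window against the distance of its centre from the gene start in kb (x axis, positive downstream), for 6 of the genes; circles are CK666 and squares CytoD, filled where the adjusted p was under 0.01. Filled CK666 points stand out at Wwtr1 (3.06), at Tead4 (1.57) and below 0 at Tead1 (-1.22 and -1.11), while at Yap1 the window 38.8 kb from the start is filled for both drugs.

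The 4 h table asked whether loci respond soon after Arp2/3 inhibition, in MSCs and in NIH3T3 cells. In MSCs the windows that passed near the 8 genes at 4 h were mostly losses, with 8 at Tead1, 5 at Vgll3 and 3 at Vgll4. Of the 193 tested windows 2 gained, where 1.95% of all tested windows did, and 16 lost, where 2.16% did. With the log2 limit there were 2, or 1.04% against 1.02% of all. The median log2 fold change over the 193 was -0.15, with 125 below 0. Over all tested windows it was 0.0009, with 153130 of 306819 below 0. The genes differed, with 36 of 41 windows below 0 at Tead1, 22 of 27 at Vgll3, 13 of 17 at Wwtr1 and 29 of 49 at Vgll4. At Yap1 11 of 20 were below 0, at Tead3 3 of 6 and at Tead4 10 of 32. Of the 18, 7 passed without any one library, 4 at Tead1 and 3 at Vgll3, and 5 of these 7 also passed in every other alternative. The other 2 did not pass with 12 libraries in the fit, namely a Tead1 window at chr7:112663144-112664219 (-0.54, adjusted p 5.24e-05 and then 0.0106) and the Vgll3 intron at 3.7 kb, both singled out after their values were seen.

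The Tead1 intronic window 41.2 kb from the start (chr7:112720011-112721094) overlaps the 24 h window that both drugs lowered, and was singled out after its values were seen. It had 594, 588 and 491 normalized counts in MSC controls and 333, 311 and 287 with CK666, so the groups were far apart. Its log2 fold change was -0.85 (SE 0.087) (adjusted p = 1.6e-12). The largest loss was in another Tead1 intron at 119.7 kb (chr7:112798635-112799390), from 43.2, 27.8 and 28.04 to 7.57, 8.35 and 8.89, at low counts. There the log2 fold change was -1.98 (SE 0.38) (adjusted p = 0.000107), again without overlap. A Tead1 intron at 21.0 kb (chr7:112700034-112700661), also chosen after its values were seen, went from 159 ± 17.8 to 76.2 ± 20.9 (SD, n = 3), with a log2 fold change of -1.07 (SE 0.16) (adjusted p = 6.09e-07). The Tead1 TSS had 469, 514 and 405 and 357, 339.7 and 357, a log2 fold change of -0.40 (SE 0.088) (adjusted p = 0.00087) that ended without CK666 replicate 2 (0.0177), control replicate 1 (0.0101) or control replicate 2 (0.0416) and with 12 libraries in the fit (-0.40, 0.0354).

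At Vgll3, an intronic window 2.8 kb from the start (chr16:65817432-65818596) had 189, 233 and 254 in the controls and 141, 133 and 123 with CK666. All CK666 libraries were lower, with a log2 fold change of -0.78 (SE 0.13) (adjusted p = 5.25e-06). A window 1.4 kb upstream (chr16:65813592-65814128) and an intronic one at 3.7 kb, both chosen after their values were seen, had -0.79 (1.67e-05) and -0.28 (0.000153), the latter not passing with 12 libraries in the fit (-0.28, 0.103). The Vgll3 TSS window went from 2368 ± 73.5 to 2050.1 ± 85.7 (SD, n = 3), and the log2 fold change was -0.21 (adjusted p = 0.00245), a call that ended without CK666 replicate 1 (0.0113) or control replicate 1 (0.0421), and also with loess offsets (-0.13, 0.0872) or with 12 libraries in the fit (-0.21, 0.255). Both gains overlapped a window gained at 24 h, one in a Tead4 intron (chr6:128285665-128286186, 0.59, 0.00284) and one upstream of Vgll4, singled out after its values were seen (chr6:114976682-114977320, 0.55, 0.00734). The first ended without CK666 replicate 1 (0.0217), CK666 replicate 3 (0.0337), control replicate 1 (0.0224) or control replicate 2 (0.0345), and the second without CK666 replicate 1 (0.0868), CK666 replicate 2 (0.0176), CK666 replicate 3 (0.0193), control replicate 1 (0.0816) or control replicate 3 (0.0295). The second also ended by DESeq2 (0.55, 0.0193) or with 12 libraries in the fit (0.55, 0.0724). The Vgll4 loss with the smallest p, in an intron (chr6:114931159-114932198), was -0.76 (0.00139), which ended without CK666 replicate 2 (0.0406), CK666 replicate 3 (0.0206) or control replicate 3 (0.0196) and with 12 libraries in the fit (-0.75, 0.0129). The Tead4 intron with the largest gain at 24 h had 95.5, 123 and 109 and 150.4, 157 and 156 at 4 h, a log2 fold change of 0.49 (adjusted p = 0.0203). No window of Tead2, Tead3, Yap1 or Wwtr1 passed by edgeR or DESeq2 in MSCs at 4 h, with 0 of 1, 0 of 6, 2 of 20 and 5 of 17 at an unadjusted p under 0.05. TSS windows that did not pass in MSCs at 4 h were those of Tead2 (-0.03, 0.964), Tead3 (0.01, 0.973), Tead4 (-0.12, 0.258), Yap1 (0.00, 0.993), Wwtr1 (-0.17, 0.0638) and Vgll4 (-0.12, 0.413) (log2 fold change, adjusted p).

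Summed counts were lower at Tead1 and Vgll3, the 2 of 8 genes that passed, where 8.67% of all genes did. The sums add up the same windows and libraries, so they are not a separate result. The Tead1 sums were 4495, 4732 and 4193 in MSC controls and 3425, 3105 and 3100.2 with CK666, a log2 fold change of -0.48 (SE 0.044) (adjusted p = 6.32e-11). The Vgll3 sums went from 6599 ± 183 to 5658 ± 146 (SD, n = 3), and the log2 fold change was -0.23 (SE 0.036) (adjusted p = 1.58e-05). Both passed without any one library. The 24 h libraries are separate samples, and of the 16 losses at 4 h, 15 overlapped a 24 h window, 12 of those had a log2 fold change below 0 with CK666 there and 5 passed. The matching shares over all windows lost in MSCs at 4 h were not counted, so these counts have no baseline.

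In NIH3T3 cells at 4 h, 5 of 51 tested windows passed at Vgll4 (9.8%) and 4 of 38 at Tead4 (10.5%). At Tead1 2 of 37 passed (5.41%), at Tead3 2 of 8 (25%), at Wwtr1 2 of 19 (10.5%) and at Vgll3 1 of 25 (4%). Over all tested windows 6.86% passed, and Vgll4 and Tead4 were the genes with the most tested windows. Of the 200 tested windows 7 gained, where 2.51% of all tested windows did, and 9 lost, where 4.34% did. With the log2 limit there were 8, or 4% against 3.55% of all. Of the 16, 5 passed without any one library. Of the 16 MSC losses, 12 had the same sign in NIH3T3 and 0 passed there by edgeR (1 by DESeq2, 6 at an unadjusted p under 0.05). Of the 9 NIH3T3 losses, 6 had the same sign in MSCs and 0 passed by edgeR or DESeq2 (1 at an unadjusted p under 0.05). The matching shares over all lost windows were not counted. Whether these overlaps are particular to the 8 genes therefore cannot be told.

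A Tead1 intron at 113.3 kb (chr7:112792087-112793142) opened in NIH3T3, from 21.4, 12.9 and 17.1 normalized counts in the controls to 85.1, 86.97 and 81.2 with CK666. The groups were far apart, with a log2 fold change of 2.33 (SE 0.27) (adjusted p = 9.64e-10). In MSCs the same window had 5.03, 12.9 and 19.02 and 12.3, 5.84 and 5.33 (-0.67, adjusted p = 0.568). The strongest loss was in a Tead4 intron 4.2 kb from the start (chr6:128296291-128296916), which was open in NIH3T3 controls at 658, 602 and 633 and fell to 274, 307 and 284. Its log2 fold change was -1.10 (SE 0.13) (adjusted p = 1.01e-09). MSCs had 22.1, 24.8 and 14.02 in the controls and 21.8, 17.5 and 32.01 with CK666 there, close to closed in both. A window 2.3 kb upstream of the Tead3 start, in a UTR exon of Tulp1 (chr17:28352746-28353439), had the largest gain at Tead3, from 4.28, 9.45 and 2.85 to 28.9, 16.3 and 22.8 (1.99, adjusted p = 0.00847), on few counts. This call ended without CK666 replicate 1 (0.0495), CK666 replicate 3 (0.0459), control replicate 1 (0.0475) or control replicate 3 (0.0678), and also by DESeq2 (2.01, 0.0182), with loess offsets (1.65, 0.0302), without the filter on low counts (1.96, 0.0104), with the replicate block (2.04, 0.0102) or with 12 libraries in the fit (1.97, 0.0265). A Tead3 coding exon (chr17:28340457-28341449) had 447, 432 and 389.8 and 612, 581 and 534, a log2 fold change of 0.47 (SE 0.13) (adjusted p = 0.00769) that ended whichever of the 6 libraries was left out (adjusted p of 0.0182 to 0.161) and with the size factors of DESeq2 (0.45, 0.0133), without the filter on low counts (0.44, 0.0244), with the replicate block (0.47, 0.0515) or with 12 libraries in the fit (0.44, 0.0172). The largest gain at Tead4 was 26.6 kb upstream, in a coding exon of Tulp3 (chr6:128327039-128327818), from 2.14, 7.74 and 7.59 to 28.9, 20.7 and 24.8 (2.05, adjusted p = 0.00406), which ended without CK666 replicate 1 (0.0188), CK666 replicate 3 (0.0262), control replicate 1 (0.0429) or control replicate 3 (0.0117) and with loess offsets (1.75, 0.0142). The one Vgll3 window that passed, in an intron (chr16:65820749-65821302), went from 63.1, 44.7 and 68.3 to 18.2, 22.8 and 41.6 (-1.02, adjusted p = 0.00969), which ended without CK666 replicate 1 (0.0463), CK666 replicate 2 (0.0417), control replicate 1 (0.0469) or control replicate 3 (0.0752), and also by DESeq2 (-1.05, 0.0416), with total-count scaling (-0.91, 0.0266) or with loess offsets (-1.003, 0.0139).

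Vgll4, the gene with the most tested windows, had 4 losses and 1 gain in NIH3T3. The gain, in an intron 77.6 kb from the start (chr6:114891889-114892886), was from 39.6, 53.3 and 30.3 to 94.2, 146 and 123, without overlap. Its log2 fold change was 1.58 (SE 0.22) (adjusted p = 8.02e-08). The intronic losses at 86.6 kb (chr6:114883128-114883648) and 5.8 kb, both singled out after their values were seen, were -0.97 (SE 0.18) (5.01e-05) and -0.96 (SE 0.19) (0.000126). Near Wwtr1, a window 36.8 kb upstream (chr3:57612441-57613026) had -0.63 (0.00369) and an intron at 1.6 kb, singled out after its values were seen, had 0.69 (0.00679). The first of these ended without CK666 replicate 1 (0.0325), control replicate 1 (0.0133), control replicate 2 (0.0355) or control replicate 3 (0.0194), and the second without CK666 replicate 2 (0.0458), CK666 replicate 3 (0.0233), control replicate 1 (0.0227), control replicate 2 (0.0538) or control replicate 3 (0.0709). Of the other alternatives, the first ended by DESeq2 (-0.65, 0.012) or with loess offsets (-0.44, 0.0262) and the second by DESeq2 (0.67, 0.0286) or without the filter on low counts (0.66, 0.0137). No Yap1 window passed by edgeR or DESeq2, and 2 of 21 had an unadjusted p under 0.05. In NIH3T3 the TSS windows of Tead2 (0.14, 0.636), Tead3 (0.28, 0.188), Tead4 (-0.28, 0.127), Yap1 (0.19, 0.363), Wwtr1 (-0.10, 0.643), Vgll4 (-0.26, 0.186), Tead1 (-0.12, 0.621) and Vgll3 (-0.40, 0.0175) did not pass (log2 fold change, adjusted p). Among these the Tead3 TSS passed with loess offsets (0.47, 0.0024), the Yap1 TSS with loess offsets (0.38, 0.00257) and the Vgll3 TSS by DESeq2 (-0.41, 0.00263), with total-count scaling (-0.29, 0.00891) or with 12 libraries in the fit (-0.42, 0.000581).

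For summed counts Tead3 was the 1 of 8 genes that passed in NIH3T3, where 25.2% of all genes did. Its sums were 918, 874 and 806 in the controls and 1155, 1108 and 1111 with CK666, without overlap, a log2 fold change of 0.40 (SE 0.085) (adjusted p = 6.81e-05). Without NIH3T3 control replicate 3 the log2 fold change was 0.33 and the adjusted p 0.0229. The larger part of this rise lay in the coding-exon window, whose own call ended whichever library was left out. Of the 8 Tead3 windows, 7 had a log2 fold change above 0 and 1 below. Tead1, lower in MSCs, had 3206, 3009 and 3107 and 2795, 3256 and 3121 in NIH3T3 (0.00, adjusted p = 0.995). Vgll3 had -0.24 (0.0179), Tead4 -0.23 (0.0247) and Vgll4 -0.17 (0.104), and these 3 passed by DESeq2. The plot of summed counts at 4 h sets both cell types side by side.

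**Figure D3:**
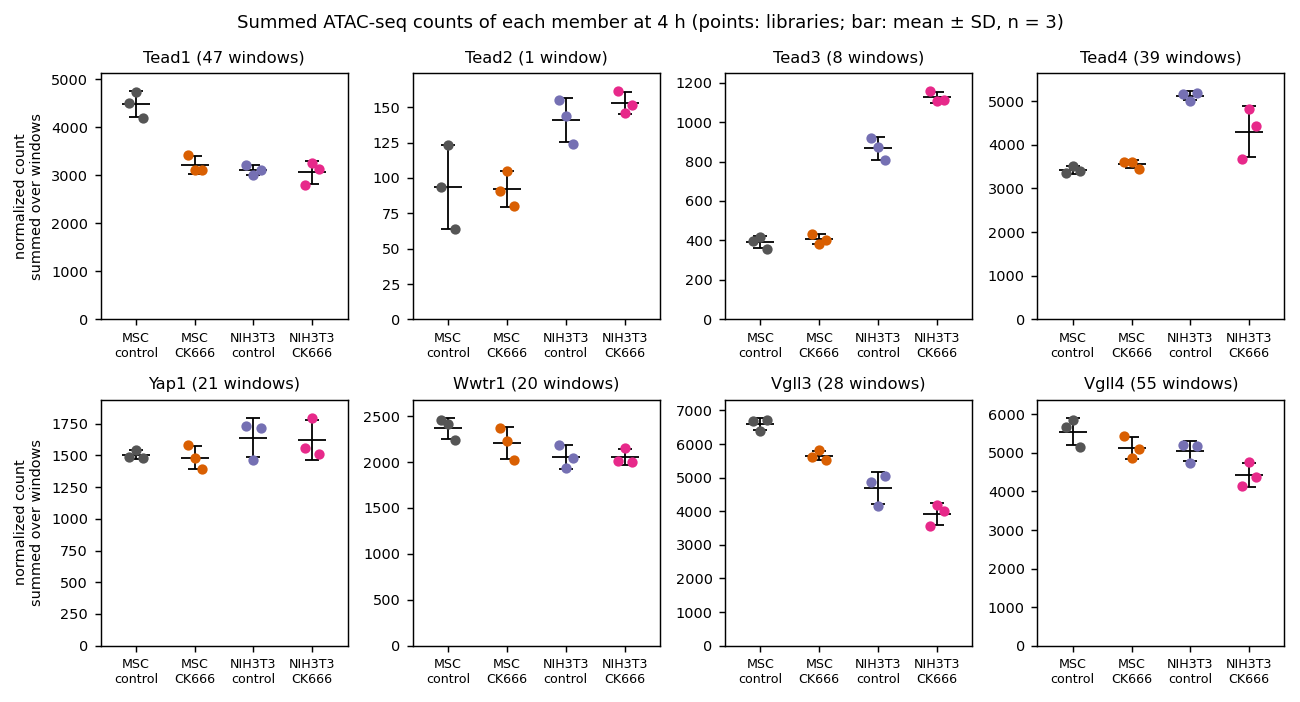
Normalized counts summed over all windows of each gene (y axis, starting at 0) in MSC and NIH3T3 controls and with CK666 at 4 h (x axis); points are libraries and bars the mean ± SD (n = 3). Tead1 is lower with CK666 in MSCs (3210.3 ± 186 against 4473 ± 269.9) and near its control in NIH3T3 (3057 ± 237 against 3107 ± 98.3), and Tead3 is higher in NIH3T3 than in MSCs.

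**Figure D4:**
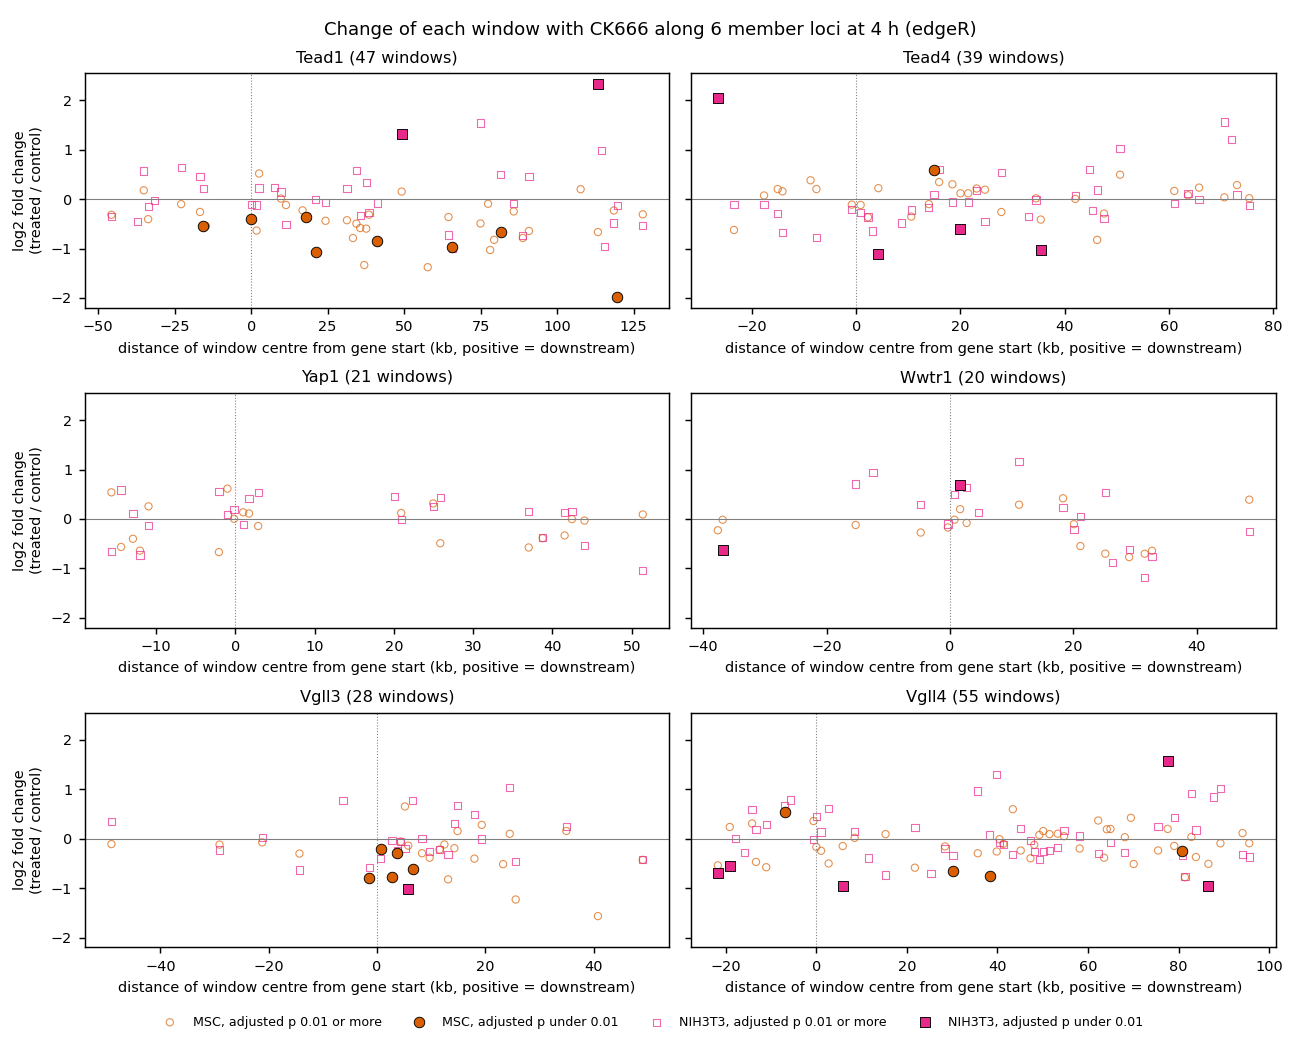
Log2 fold change of CK666 over control at 4 h (y axis) for each window against the distance of its centre from the gene start in kb (x axis, positive downstream), for 6 of the genes; circles are MSCs and squares NIH3T3, filled where the adjusted p was under 0.01. The filled MSC points of Tead1 all lie below 0, the lowest at -1.98, while the filled NIH3T3 points there lie above 0, up to 2.33.

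The difference in the CK666 response between the cell types was tested as an interaction, NIH3T3 minus MSC, from which a positive value means a more positive log2 fold change in NIH3T3. Of the 218 tested windows 8 had a positive difference that passed, where 0.62% of all tested windows did, and 2 a negative one, where 1.44% did. With the log2 limit there were 8, or 3.67% against 1.4% of all. Tead1 held 5 of the 8 positive differences. The largest was the intron at 113.3 kb that opened in NIH3T3, 2.97 (SE 0.55) (adjusted p = 0.000165). The intron at 41.2 kb, where MSCs fell and NIH3T3 had 916, 821 and 891 and 736, 896 and 814 (-0.08), differed by 0.74 (SE 0.15) (adjusted p = 0.000666). Both passed without any one of the 12 libraries, as did the Wwtr1 intron described next. The other Tead1 introns, of which the latter pair were singled out after their values were seen, at 119.7, 21.0 and 74.9 kb, differed by 1.83, 1.05 and 2.01, with adjusted p of 0.00128, 0.00622 and 0.00941. The first of these ended without MSC control replicate 1 (0.0173), the second without MSC CK666 replicate 2 (0.0441), MSC CK666 replicate 3 (0.0327), MSC control replicate 1 (0.0216), MSC control replicate 2 (0.0294), NIH3T3 CK666 replicate 2 (0.0299), NIH3T3 CK666 replicate 3 (0.0251), NIH3T3 control replicate 2 (0.041) or NIH3T3 control replicate 3 (0.0407) and the last without MSC CK666 replicate 1 (0.0248), MSC CK666 replicate 2 (0.0145), MSC CK666 replicate 3 (0.0234), MSC control replicate 1 (0.0132), MSC control replicate 2 (0.0491), MSC control replicate 3 (0.0122), NIH3T3 CK666 replicate 1 (0.0222), NIH3T3 CK666 replicate 3 (0.0344), NIH3T3 control replicate 1 (0.012), NIH3T3 control replicate 2 (0.0658) or NIH3T3 control replicate 3 (0.0128). The second also ended by DESeq2 (0.98, 0.021), with the size factors of DESeq2 (0.99, 0.0122) or without the filter on low counts (1.002, 0.0111), and the last with the size factors of DESeq2 (1.96, 0.0117), with loess offsets (1.91, 0.014), without the filter on low counts (1.97, 0.0115) or with the replicate block (2.01, 0.015).

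A Wwtr1 intron at 25.2 kb (chr3:57550193-57551275) had 103, 84.3 and 83.1 in MSC controls and 56.8, 53.4 and 56.01 with CK666, but 155, 135 and 129 in NIH3T3 controls and 219, 214 and 164 with CK666. The CK666 libraries lay on opposite sides of their controls, and the difference was 1.21 (SE 0.25) (adjusted p = 0.000691), although neither cell type passed alone (-0.70, 0.0119 and 0.53, 0.016). A Vgll3 intron at 6.6 kb (chr16:65821310-65822377) also moved in opposite directions, 119.6, 119 and 124 against 81.4, 69.3 and 86.2 in MSCs and 44.9, 35.2 and 37.9 against 53.2, 70.7 and 73.3 in NIH3T3. Its difference was 1.38 (SE 0.29) (adjusted p = 0.00122), which ended without NIH3T3 CK666 replicate 3 (0.013). The Tead4 intron at 4.2 kb differed by -1.35 (SE 0.30) (adjusted p = 0.0019), ending without MSC CK666 replicate 3 (0.0544) or MSC control replicate 3 (0.0216). At Vgll4, the window at chr6:114891889-114892886 and, singled out after its values were seen, the one at chr6:114988539-114989704 differed by 1.36 (0.00326) and -0.81 (0.00381). The first ended without MSC CK666 replicate 3 (0.0149), MSC control replicate 3 (0.0242), NIH3T3 CK666 replicate 2 (0.0223), NIH3T3 CK666 replicate 3 (0.014), NIH3T3 control replicate 1 (0.0112) or NIH3T3 control replicate 3 (0.0261) and the second without MSC CK666 replicate 2 (0.0197), MSC CK666 replicate 3 (0.017), MSC control replicate 3 (0.0342), NIH3T3 CK666 replicate 3 (0.0158) or NIH3T3 control replicate 3 (0.0227). For summed counts Tead1 was the 1 of 8 that passed, where 12.5% of genes did, with a difference of 0.46 (SE 0.10) (adjusted p = 0.000316) that ended without NIH3T3 CK666 replicate 3 (0.0153). The Tead3 difference of 0.32 (0.0536) passed with total-count scaling (0.43, 0.00488), and the Tead4 difference of -0.30 (0.02) by DESeq2 (-0.28, 0.00372).

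**Figure D5:**
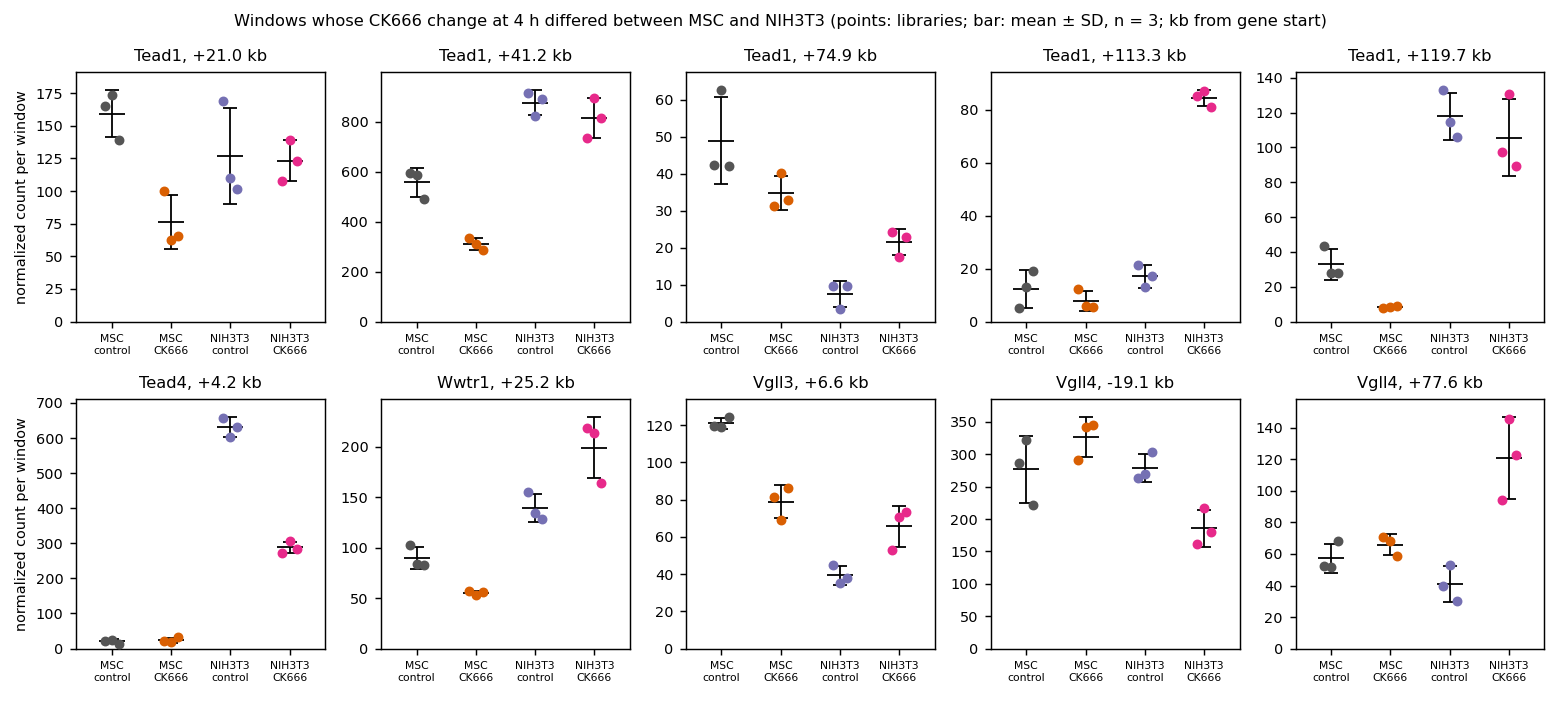
Normalized counts (y axis, starting at 0) of the 10 windows whose CK666 response at 4 h differed between the cell types, by group (x axis), each titled with its gene and distance from the gene start in kb; points are libraries and bars the mean ± SD (n = 3). At the Tead1 window of 113.3 kb the NIH3T3 CK666 libraries (84.4 ± 2.93) stand above the other 3 groups, and at the Tead4 window of 4.2 kb both MSC groups lie near 0.

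Untreated NIH3T3 and MSC controls at 4 h were compared as NIH3T3 over MSC, and these are the controls of the comparisons above. Of the 218 tested windows 43 were higher in NIH3T3, where 18.5% of all tested windows were, and 66 were lower, where 22.9% were. With the log2 limit there were 81, or 37.2% against 34.5% of all. Tead1 had 6 higher and 17 lower, Tead2 1 and 0, Tead3 3 and 1, and Tead4 10 and 8. Yap1 had 7 higher and 4 lower, Wwtr1 5 and 7, Vgll3 1 and 17, and Vgll4 10 and 12. For summed counts 6 of the 8 passed, where 65.3% of all genes did. The lines also differ in origin, culture and depth, and the part of these in the result was not tested.

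Among the TEAD genes, Tead3 was the more open in NIH3T3, with sums of 918, 874 and 806 against 398, 416 and 357 in MSCs and a log2 difference of 1.15 (SE 0.09) (adjusted p = 4.08e-22). Its coding-exon window (chr17:28340457-28341449) had 447, 432 and 389.8 in NIH3T3 and 41.2, 17.8 and 36.05 in MSCs, a difference of 3.73 (SE 0.18) (adjusted p = 3.1e-31), while its TSS window was lower in NIH3T3, at -0.46 (0.00182). Most of the gap between the Tead3 sums lay in this coding-exon window, and of the 8 Tead3 windows 6 had a difference above 0 and 2 below. The TSS call ended without MSC control replicate 2 (0.0274), NIH3T3 control replicate 2 (0.0193) or NIH3T3 control replicate 3 (0.0139), and also with total-count scaling (-0.23, 0.0818) or with loess offsets (-0.12, 0.384). Tead4 sums were 5122 ± 98.1 in NIH3T3 and 3424 ± 90.1 in MSCs (SD, n = 3), a log2 difference of 0.58 (adjusted p = 3.2e-12). The Tead4 locus held windows with large differences in either direction: the intron at 4.2 kb was at 4.95 (7.81e-40) and the intron at 50.6 kb, with 1.07, 11.2 and 3.79 in NIH3T3 and 95.5, 123 and 109 in MSCs, at -4.24 (8.59e-21). Tead1 was lower in NIH3T3, with sums of 3206, 3009 and 3107 against 4495, 4732 and 4193 (-0.53 (SE 0.07), adjusted p = 8.98e-11). Its largest differences were -3.65 at chr7:112712295-112712821 and 2.71 at chr7:112633120-112634104, with adjusted p of 1.17e-08 and 1.02e-13. The Tead2 TSS window, its only window, had a difference of 0.59 (0.00359), which ended without MSC control replicate 1 (0.0134), MSC control replicate 3 (0.088), NIH3T3 control replicate 1 (0.0248) or NIH3T3 control replicate 2 (0.0115).

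Yap1 sums were 1734, 1462 and 1719 in NIH3T3 and 1491, 1545 and 1479 in MSCs, which did not pass (0.12, adjusted p = 0.144). The Yap1 sum was higher in NIH3T3 and passed by DESeq2 (0.35, 6.9e-08) or with total-count scaling (0.35, 6.46e-07), so its call depends on the scaling, and windows inside the locus differed in both directions. The Yap1 window at chr9:7952933-7953458 had 43.9, 41.3 and 36.99 in NIH3T3 and 232, 225 and 235 in MSCs (-2.50, adjusted p = 2.48e-21), and the one at chr9:7979079-7980208 had 92.02, 79.1 and 132 and 6.03, 22.8 and 4.01 (3.18, adjusted p = 6.25e-15). The Yap1 TSS window was higher in NIH3T3 by 0.36 (log2, adjusted p = 0.0093), which ended without MSC control replicate 1 (0.0189), MSC control replicate 2 (0.0353), MSC control replicate 3 (0.0348), NIH3T3 control replicate 1 (0.0187) or NIH3T3 control replicate 3 (0.0973), and also with the replicate block (0.36, 0.0148). Wwtr1 differed most at chr3:57527100-57527733 (-3.30, 2e-23) and chr3:57557281-57557891 (2.97, 1.64e-17), and its sum by -0.21 (adjusted p = 0.00795). The Wwtr1 sum turned to 0.023 with total-count scaling and to 0.018 by DESeq2, so its direction depends on the scaling, and its call ended without MSC control replicate 1 (0.051), MSC control replicate 2 (0.0341), NIH3T3 control replicate 2 (0.124) or NIH3T3 control replicate 3 (0.0259), and also with the size factors of DESeq2 (-0.17, 0.0509) or with the replicate block (-0.21, 0.0126). Vgll3 was lower in NIH3T3, with sums of 4880.2, 4149 and 5063 against 6700.1, 6387 and 6708 (-0.49 (SE 0.07), adjusted p = 8.94e-10), and 17 of its 18 passing windows were lower. The largest of these losses was -3.51 at chr16:65839375-65840173 (adjusted p = 4.06e-26), and the gain was 1.18 at chr16:65840593-65841141 (0.00748), which ended without MSC control replicate 2 (0.0433), MSC control replicate 3 (0.0238), NIH3T3 control replicate 2 (0.0649) or NIH3T3 control replicate 3 (0.03), and also by DESeq2 (1.22, 0.0144), with loess offsets (1.11, 0.0123) or with the replicate block (1.11, 0.015). Its TSS window had -0.28 (0.00698), a call that no other alternative kept, turning to 0.0044 with loess offsets and ending by DESeq2 (-0.24, 0.0174), with the size factors of DESeq2 (-0.24, 0.0331), with total-count scaling (-0.05, 0.507), without the filter on low counts (-0.26, 0.0229), with the replicate block (-0.28, 0.0134) or with 6 libraries in the fit (-0.23, 0.0134). It also ended without MSC control replicate 1 (0.0418), MSC control replicate 2 (0.0155), MSC control replicate 3 (0.0218), NIH3T3 control replicate 1 (0.0132) or NIH3T3 control replicate 2 (0.147). Vgll4 did not pass as a sum (-0.14, adjusted p = 0.0679), with windows from -3.57 at chr6:114899631-114900163 to 3.71 at chr6:114991494-114992012.

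The surroundings of some loci moved with them. Over windows within 5 Mb of the gene that lay nearest to other genes, the median NIH3T3 over MSC log2 difference was -0.85 around Vgll3 and -0.26 around Tead1, beside -0.89 and -0.67 over their own windows. Around Yap1 it was -0.88 against 0.36 over the Yap1 windows, and around Tead3 -0.18 against 1.31. For Tead4 the pair was 0.08 and 0.40, and over all windows the median was 0.02. The pairs were 0.26 and 0.59 for Tead2, with 1 window of its own, 0.02 and -0.28 for Wwtr1, and -0.02 and -0.02 for Vgll4. The part of these surroundings in the differences was not tested.

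The genes upstream of YAP and TAZ were read from a list of 23 Hippo pathway genes and 2 further vestigial genes, by summed counts and with values given as log2 fold change and adjusted p. With CK666 at 24 h 1 of the 25 was higher and 1 lower, Limd1 (0.26, 0.00261), a LATS inhibitor, and Wwc2 (-0.18, 0.00599), a LATS activator, and the median was -0.04 against 0.04 over all genes. That is 8% of the list, where 12.4% of all genes passed. With CytoD 6 passed, all of them lower, among them the kinase genes Lats2 (-0.29, 2.23e-05) and Stk3 (-0.36, 1.96e-06) and the angiomotin genes Amotl1 (-0.23, 0.000196) and Amotl2 (-0.23, 4.66e-05), which encode proteins that hold YAP in the cytoplasm. The other 2 were Limd1 (-0.26, 0.00359) and Vgll2 (-0.32, 9.39e-05), and the median was -0.16 against -0.05 over all genes. The 6 are 24% of the list, where 17.2% of all genes passed, most of them lower as well. For CK666 over CytoD 6 were higher and 2 lower, with a median of 0.08 against 0.08 (32% of the list against 21.9% of all). With CK666 in MSCs at 4 h 4 were lower, namely Lats2 (-0.25, 4.95e-05), Wwc2 (-0.30, 6.59e-07), Frmd6 (-0.18, 0.00608) and Ptpn14 (-0.20, 2.12e-05), with a median of -0.11 against 0.01 (16% against 8.67% of all). In NIH3T3 2 were higher, Nf2 (0.28, 0.009) and Taok1 (0.39, 0.000553), and 6 lower, among them Stk4 (-0.31, 0.00273), Ptpn14 (-0.51, 4.14e-07) and Fat4 (-0.28, 0.00551), with a median of -0.07 against 0.00 (32% against 25.2% of all). Between untreated cell types 4 were higher and 16 lower in NIH3T3, with a median of -0.35 against -0.22 (80% against 65.3% of all). For the interaction 1 was positive and 2 negative (12% against 12.5% of all). Directions in the list are to be read beside those of all genes. Of all tested genes, 1348 passed as higher and 986 as lower with CK666 at 24 h, and 856 and 2369 with CytoD. These counts were 3251 and 871 for CK666 over CytoD, 762 and 897 in MSCs at 4 h and 2225 and 2624 in NIH3T3. Between untreated cell types they were 3912 and 8777, and for the interaction 721 and 1712.

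In the central 300 bases, TEAD letters were present in 4 of the 9 windows lost with CK666 at 24 h and in 6 of the 16 lost in MSCs at 4 h, where 30.8% and 31.2% of all windows lost in those comparisons held them. All 4 of the first were Vgll3 windows, and the Tead1 windows at 41.2 and 118.6 kb, whose printed matches lie outside the centre, count as having neither motif. AP-1 letters were present in 2 of those 9 and 4 of those 16, where 35% and 33.3% of all lost windows held them. For CytoD, 6 of the 11 lost windows held AP-1 letters and 3 held TEAD letters, where 46.2% and 30.5% of all windows lost with CytoD did. In NIH3T3, 4 of the 9 lost windows held AP-1 letters and 0 of 9 TEAD letters, where 49.4% and 20.6% of all lost windows did. These are counts of letters in few windows and carry no test.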

How the data were processed

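ATAC-seq libraries of 50000 MSCs (Omni-ATAC) or of NIH3T3 cells were made and sequenced by the authors. The deposited tables hold raw counts of reads per consensus window, which the authors made with the PEPATAC pipeline (bowtie2 alignment, MACS2 peaks, windows taken as a union over replicates). The submitters' processing notes name mm10, the same assembly as GRCm38, with tool versions that the sources used here leave unstated. The 2 tables were counted over separate window sets, so tests stayed within a table. The time of 24 h comes from the study's abstract and results.

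The windows of the 8 genes, the gene lists and the tests were chosen with earlier results of these data known. Windows were tested with edgeR 4.0.16 in R 4.3.3 (filterByExpr, TMM scaling, quasi-likelihood F test, Benjamini-Hochberg adjustment over all tested windows), with the 9 libraries of the 24 h table, the 6 of each cell type at 4 h, or all 12 at 4 h for the cell type comparisons, in one fit each. The threshold was an adjusted p of 0.01, with a log2 fold change beyond 1 as a second limit. Counts were also summed over the windows of each protein-coding gene and tested in the same way. Normalized counts are TMM-scaled counts at the geometric mean library size of a table. Window coordinates are printed as deposited, and printed sequences are counted from 1. Sequence was read with pysam 0.24.0 from the RefSeq copy of GRCm38, and the promoter table held no entry for Tead1 and Tead4. Named windows were each gene's TSS window with the most counts and, in each comparison, its window with the largest gain and loss among those past both limits, or else that with the smallest p under the threshold. The window test was checked on simulated counts before use. Those changes were larger than most reported here and lay only in windows with enough counts. The check did not cover summed counts or the interaction.

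Alternatives were DESeq2 1.42.0, its size factors in edgeR, total-count scaling, loess offsets (limma 3.58.1), no filter, a replicate block, another set of libraries in the fit, a limit of 5 kb, windows of the gene body added, and leaving out each library. Same-numbered replicates did not deviate together (correlations of -0.0698 to 0.0266), so they were not treated as pairs. The 9 siRNA libraries were not used, and their columns ranked windows with correlations of -0.00513 to 0.00141 with the other 24 h libraries. With 3 libraries a group, precision is limited by the spread between libraries and by the depth given above, which covers counting error only at low counts.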

Additional observations from a re-analysis of the deposited data

Results flagged for a closer look

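The response to CK666 at 4 h differed between MSCs and NIH3T3 by the interaction test (edgeR, adjusted p under 0.01, NIH3T3 minus MSC on the log2 scale) at 10 windows and 1 sum. At Tead1 the windows at chr7:112792087-112793142, chr7:112753700-112754760, chr7:112798635-112799390, chr7:112700034-112700661 and chr7:112720011-112721094 differed by 2.97, 2.01, 1.83, 1.05 and 0.74. All 3 libraries with CK666 were higher than the controls in NIH3T3 at the first of these.

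At Vgll3 chr16:65821310-65822377 differed by 1.38, at Wwtr1 chr3:57550193-57551275 by 1.21, and at Vgll4 chr6:114891889-114892886 by 1.36 and chr6:114988539-114989704 by -0.81. At Tead4 chr6:128296291-128296916 differed by -1.35, where the MSC libraries held few counts. The summed counts of Tead1 differed by 0.46.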

How the results depend on the processing

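Over the alternatives other than leaving out a library, 127 of 152 counts stayed within 1.5 times and 1089 of 1199 single values kept their direction and side of the threshold, while 88 lost a call, 19 gained one and 3 reversed. Of the values with a library left out, 108 of 144 counts and 1106 of 1344 single values stayed so. Sign changes of values past the threshold in neither fit (24 and 44) were counted apart. The Vgll3 TSS window in NIH3T3 against MSC turned to 0.0044 with loess offsets, and the Wwtr1 sum there to 0.018 by DESeq2 and 0.023 with total counts. The causes of these changes were not tested.

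A limit of 5 kb keeps fewer windows. It left 1 (CK666, 24 h), 0 (CytoD), 0 (CK666 over CytoD), 0 (CK666, MSC, 4 h), 2 (NIH3T3), 2 (interaction) and 22 (NIH3T3 over MSC) windows past both limits, and 5, 5, 2, 8, 5, 2 and 34 past the adjusted p alone. By DESeq2, 1 window in MSCs at 4 h and 4 in NIH3T3 passed both limits, and with loess offsets 3 in NIH3T3. With 12 libraries in the fit 7 windows passed the adjusted p in MSCs at 4 h. The number of the 8 genes passing by summed counts became 1 by DESeq2 and 0 with total counts for CytoD, 3 and 3 for CK666 over CytoD, 4 by DESeq2 for NIH3T3, and 2 and 2 for the interaction.

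Without one library, windows past both limits numbered 4 to 7 for CK666 at 24 h, 1 to 3 for CytoD, 3 to 6 for CK666 over CytoD, 1 to 5 in MSCs at 4 h, 3 to 10 in NIH3T3, 4 to 9 for the interaction and 72 to 78 for NIH3T3 over MSC. Past the adjusted p alone they numbered 8 to 13, 5 to 13, 6 to 8, 11 to 14, 5 to 16, 5 to 12 and 89 to 93, and genes 2 to 2, 1 to 5, 1 to 1, 2 to 3, 0 to 3, 0 to 2 and 5 to 5. Counts moved by over 1.5 times without CytoD replicate 3 (5 windows), 24 h control replicate 3 (8 for CK666), MSC control replicate 1 (11), MSC CK666 replicate 2 (11), NIH3T3 control replicates 1 and 3 (5 each), NIH3T3 CK666 replicate 3 (9, and 5 for the interaction), and MSC CK666 or control replicate 3 (6 for the interaction).

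Same-numbered libraries did not deviate together, and with the replicate block 14 windows passed for CK666 at 24 h, 13 for CytoD, 10 for CK666 over CytoD, 18 in MSCs and 14 in NIH3T3 at 4 h, 9 for the interaction and 104 for NIH3T3 over MSC. Windows under about 30 normalized counts, such as those of the Wwtr1 gain and the Tead1 loss at 119.7 kb, rest on few reads per library.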
